A study of Rattus norvegicus with 40 samples.

Results

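The livers of Long-Evans (Turku/AB) (L-E) rats taken 19 h after TCDD were compared with those of L-E rats taken 3 h after TCDD, 4 arrays against 4, which are 8 of the 40 arrays of the series. The arrays were chosen by their titles, which give tissue, strain, treatment and time, and no measured value entered the choice. Every rat was an adult male aged 10 to 12 weeks, and both groups received 1 dose of 100 µg/kg TCDD (2,3,7,8-tetrachlorodibenzo-p-dioxin) by gavage. L-E is a dioxin-sensitive strain with the wildtype aryl hydrocarbon receptor (AHR). Han/Wistar (Kuopio) (H/W) rats, whose receptor lacks a stretch of its transactivation domain and which resist TCDD, were sampled at the same times (4 arrays each). L-E rats given corn oil, the vehicle, were sampled 19 h after gavage (4 arrays). The labels give no corn oil group at 3 h. Each array is 1 rat. Per the study's methods a treatment group shared 1 cage, so a cage and its group cannot be told apart. Livers of both times were harvested in the same morning hours, so the clock time of dosing also went with the group.

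TCDD enters the cell and binds the AHR, which moves to the nucleus, pairs with ARNT and binds DNA at short motifs that hold the letters GCGTG. The best known targets are the CYP1 monooxygenases and other enzymes of xenobiotic metabolism, together called the AHR gene battery. In sensitive rats the liver is a main site of TCDD toxicity, with disturbed glucose, lipid and amino acid metabolism and loss of body weight.

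All 4 arrays of the 3 h group were scanned on 1 day (day 5 of the series' 5 scan days), which holds no 19 h array. Of the 19 h arrays, 1 was scanned on day 1 and 3 on day 2. Scan day and time after TCDD therefore cannot be told apart. The median log2 signal of the 8 arrays lay between 3.54 and 3.62, their mean correlation with the other arrays of their group was 0.995 to 0.996, and arrays of different times correlated at 0.987 to 0.991. The tissue matched its label: albumin (Alb) read 16.52 ± 0.07 in the 19 h livers and 16.56 ± 0.03 in the 3 h livers on the log2 scale (SD, n = 4 each), and of 13 hepatocyte markers measured 1 was called between the times (Rbp4, 0.22 ± 0.02 SE, adjusted p = 0.00188). Limma called 0 of 4 blood, 9 pancreas and fat, 13 immune, 4 bile duct and 12 stellate and endothelial cell markers (2, 2, 2, 1 and 1 of them with an unadjusted p under 0.05). Of the 13 hepatocyte markers 5 had an unadjusted p under 0.05, and over all genes tested 2542 of 10411 did. On the log2 scale, the summed signal of the blood markers was 12.00 to 13.02 in the 19 h livers, above the 11.35 to 11.90 of the 3 h livers, and that of the immune markers was 12.46 to 13.04 in the 19 h livers and 12.85 to 13.30 in the 3 h livers. The sums of the pancreas and fat markers (7.22 to 7.43 in the 19 h livers and 7.47 to 7.84 in the 3 h livers) and of the bile duct markers (5.57 to 5.73 in the 19 h livers and 5.75 to 6.16 in the 3 h livers) did not overlap either and were lower at 19 h. The part of these markers in the results was not tested. In whole liver, a change in the number of cells of a type and a change in RNA per cell cannot be told apart.

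Between the times, 420 of 10411 genes (4.03%) were called, that is, had an adjusted p under 0.01 in limma. Of these, 195 (1.87% of the genes tested) were higher at 19 h and 225 (2.16%) were lower. The largest higher differences were those of Cyp1b1 and Aldh3a1 of the AHR battery, and the largest lower one was that of Sds, an enzyme of amino acid breakdown. The groups of 4 did not overlap in 1974 genes (19%), all 420 called genes among them. The median difference was 0.67 over the genes called higher and -0.94 over those called lower, on the log2 scale, against 0.02 over all genes. A difference of at least 1, a doubling, was passed by 46 of the genes called higher and 94 of those called lower.

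The number of calls rested on single arrays and on the treatment of the scan day. It was 279 without 19 h replicate 2, 213 without 19 h replicate 4, and 172, 185, 199 and 246 without 3 h replicates 1, 2, 3 and 4, against 341 and 286 without 19 h replicates 1 and 3. With scan day as a random block 148 genes were called. Of the 76 called genes named here, 35 kept their call whichever array was left out, 41 kept it with that block, and 10 kept it when blocked on the replicate number. After quantile normalization of the 8 arrays 201 genes were called higher and 137 lower, so that the split between the directions was turned round.

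**Figure D1:**
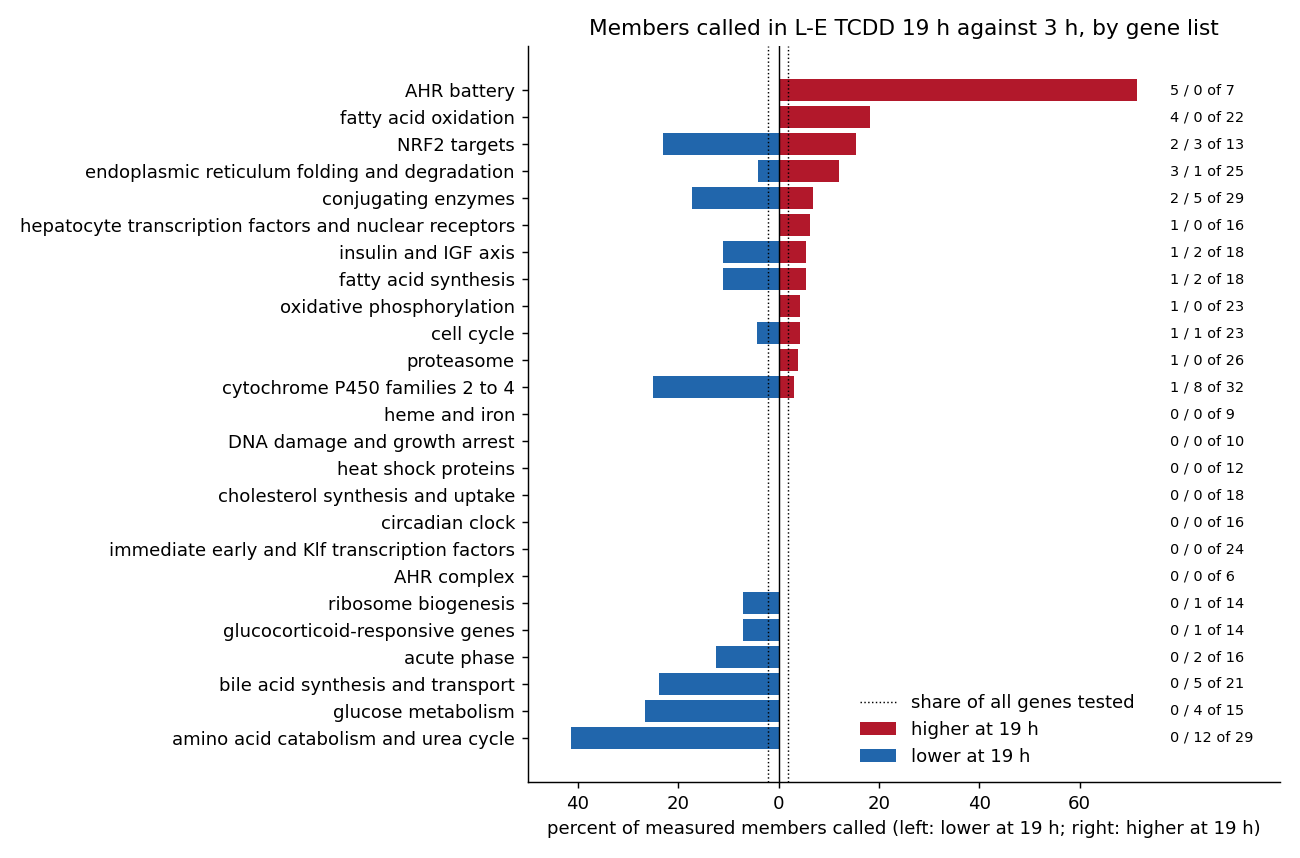
Percent of the measured members of 25 gene lists called at an adjusted p under 0.01, L-E TCDD 19 h against 3 h; bars to the right are members higher at 19 h, bars to the left members lower at 19 h, the numbers at the right give the counts (higher / lower of measured) and dotted lines mark the shares of all genes tested. The AHR battery has 5 of 7 members higher, and the amino acid list 12 of 29 lower.

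Of the AHR battery, 7 genes were measured, and 5 were called higher at 19 h (71.4% of the members, against 1.87% of all genes called higher). The median difference over the 7 was 0.53 on the log2 scale. The gene with the largest difference of any was Cyp1b1, a monooxygenase of xenobiotics and oestrogens. Its log2 signal was 12.21, 12.57, 13.55 and 13.49 in the 19 h livers, against 6.46, 4.53, 5.01 and 4.45 in the 3 h livers. The lowest 19 h array lay far above the highest 3 h array, and the difference was 7.84 ± 0.53 (SE, adjusted p = 0.000558), a 230-fold higher signal. Corn oil livers read 3.47 ± 0.21 (SD, n = 4), below both, and the 3 h livers were not called against corn oil (adjusted p = 0.0679).

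Aldh3a1, which oxidises aromatic and fatty aldehydes, stood at a high level at 3 h and higher at 19 h. It read 13.86, 13.78, 14.12 and 14.11 in the 19 h livers, against 10.82, 10.79, 11.89 and 9.90 in the 3 h livers, and the groups did not overlap. The difference was 3.11 ± 0.38 (SE, adjusted p = 0.00364), and corn oil livers read 2.82 ± 0.35, so that the larger step lay between corn oil and 3 h. Nqo1, a quinone reductase, read 12.61, 12.64, 12.32 and 12.55 in the 19 h livers, against 11.64, 11.31, 11.63 and 11.61 in the 3 h livers. All 19 h arrays were above all 3 h arrays, by 0.98 ± 0.10 (SE, adjusted p = 0.00189) in the mean, with corn oil livers at 9.42 ± 0.49.

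Cyp1a1 and Cyp1a2, the monooxygenases by which AHR activation is usually measured, stood at a high signal at both times. For Cyp1a1 the arrays read 14.41, 14.62, 14.48 and 14.61 in the 19 h livers, against 14.11, 14.14, 14.19 and 13.97 in the 3 h livers, a difference of 0.43 ± 0.07 (SE, adjusted p = 0.00778), while corn oil livers read 3.98 ± 2.15. For Cyp1a2 they read 15.25, 15.49, 15.40 and 15.38 in the 19 h livers, against 14.86, 14.88, 14.96 and 14.82 in the 3 h livers, a difference of 0.50 ± 0.06 (SE, adjusted p = 0.00276), with corn oil livers at 14.11 ± 0.07. Neither pair of groups overlapped, and the difference of Cyp1a1 was small beside its distance from corn oil. Cyp1b1 and Nqo1 kept their call whichever of the 8 arrays was left out, while Aldh3a1, Cyp1a1 and Cyp1a2 lost it without any of 6, 7 and 3 arrays (highest adjusted p 0.0146, 0.0254 and 0.0113).

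Tiparp and Nfe2l2 were high at both times and not called between them. Tiparp, an ADP-ribosyltransferase that represses the AHR, read 10.74, 10.18, 10.89 and 9.54 in the 19 h livers, against 10.28, 9.06, 10.14 and 9.75 in the 3 h livers, with overlapping groups and a difference of 0.53 ± 0.38 (SE, adjusted p = 0.417). Nfe2l2, which encodes the oxidative stress factor NRF2, averaged 11.87 ± 0.46 in the 19 h livers and 11.68 ± 0.20 in the 3 h livers (SD, n = 4 each), a difference of 0.18 ± 0.23 (SE, adjusted p = 0.595). Against corn oil at 19 h, Tiparp (oil 6.02 ± 0.56) was called at 19 h (adjusted p = 0.00177) and at 3 h (adjusted p = 0.00234), and Nfe2l2 (oil 9.70 ± 0.14) likewise (adjusted p = 0.00308 and 0.000347). Against corn oil, 7 battery members were called higher at 19 h and 6 at 3 h, all but Cyp1b1. Of all genes, 0.951% were called higher than corn oil at 19 h and 1.34% at 3 h. Of 6 members of the AHR complex limma called 0 between the times (2 with an unadjusted p under 0.05, against 2542 of all 10411 genes). Ahr itself read 4.19, 5.71, 5.29 and 5.74 in the 19 h livers, against 3.00, 3.97, 4.16 and 2.97 in the 3 h livers. Its groups did not overlap, but the difference of 1.71 ± 0.44 (SE, adjusted p = 0.0548) did not pass the threshold.

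**Figure D2:**
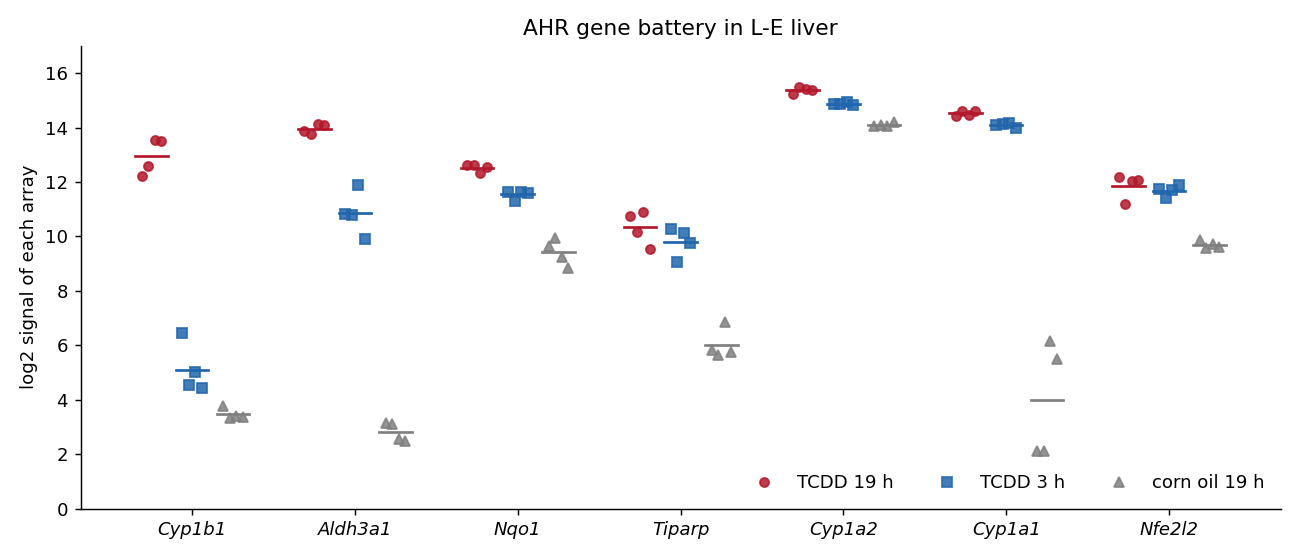
Log2 signal of the 7 measured AHR battery genes on each L-E array, 4 arrays per group (circles TCDD 19 h, squares TCDD 3 h, triangles corn oil 19 h), with a line at each group mean. Cyp1b1 is apart at 19 h, and Aldh3a1, Nqo1 and, from a high corn oil level, Cyp1a2 step up at 3 h and again at 19 h. Cyp1a1, Tiparp and Nfe2l2 are already high at 3 h.

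The promoters of battery genes with differing courses are shown with the 5-letter core of the AHR motif, GCGTG, in capitals on either strand (read as CACGC on the other). Each runs from 250 bases before to 50 bases after the start of the gene, from RefSeq on the build GRCr8. Cyp1b1 lies at chr6:21094315-21094614 (plus strand), Nqo1 at chr19:52220218-52220517 (minus strand), Tiparp at chr2:152063519-152063818 (plus strand) and Cyp1a2 at chr8:66978100-66978399 (minus strand). Vat1, at chr10:86897362-86897661 (minus strand), is added as the gene outside the battery with the largest higher difference.
Cyp1b1: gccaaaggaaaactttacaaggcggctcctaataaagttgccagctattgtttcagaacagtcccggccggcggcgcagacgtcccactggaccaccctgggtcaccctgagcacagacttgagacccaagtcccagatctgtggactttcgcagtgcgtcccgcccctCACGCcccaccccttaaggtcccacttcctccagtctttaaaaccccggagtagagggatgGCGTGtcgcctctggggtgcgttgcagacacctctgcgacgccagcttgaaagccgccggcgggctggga
Nqo1: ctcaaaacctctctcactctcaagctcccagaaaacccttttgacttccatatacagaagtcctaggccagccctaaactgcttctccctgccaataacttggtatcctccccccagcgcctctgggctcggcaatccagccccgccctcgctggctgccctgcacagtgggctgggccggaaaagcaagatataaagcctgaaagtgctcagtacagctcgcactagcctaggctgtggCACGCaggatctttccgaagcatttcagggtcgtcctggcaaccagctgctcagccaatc
Tiparp: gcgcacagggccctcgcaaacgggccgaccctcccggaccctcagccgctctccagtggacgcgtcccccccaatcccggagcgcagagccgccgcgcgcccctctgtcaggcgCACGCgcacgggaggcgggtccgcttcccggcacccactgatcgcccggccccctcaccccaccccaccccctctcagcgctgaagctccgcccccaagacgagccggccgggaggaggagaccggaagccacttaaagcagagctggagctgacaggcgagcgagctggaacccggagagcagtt
Cyp1a2: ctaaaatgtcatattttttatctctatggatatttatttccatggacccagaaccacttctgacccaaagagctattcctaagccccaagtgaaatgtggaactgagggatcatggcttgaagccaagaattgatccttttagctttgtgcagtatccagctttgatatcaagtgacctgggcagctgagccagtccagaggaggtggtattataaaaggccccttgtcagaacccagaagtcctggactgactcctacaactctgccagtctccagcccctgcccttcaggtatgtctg
Vat1: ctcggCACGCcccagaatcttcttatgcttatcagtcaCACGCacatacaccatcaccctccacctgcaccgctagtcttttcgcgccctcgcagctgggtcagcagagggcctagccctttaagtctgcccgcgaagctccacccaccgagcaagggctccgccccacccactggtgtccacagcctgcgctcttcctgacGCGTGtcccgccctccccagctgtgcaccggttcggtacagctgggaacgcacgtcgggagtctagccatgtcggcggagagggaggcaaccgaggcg
Cyp1b1 held 2 matches, starting at positions -81 and -20 from the start of the gene, Nqo1 held 1 at -10, Tiparp 1 at -136 and Vat1 3 at -245, -212 and -48. The window of Cyp1a2 held 0, and bases outside the windows were not searched. A promoter was found for 5 of the 7 battery genes, of which 3 held the motif, and for 8 of the 10 genes with the largest higher differences, of which 4 held it. The motif is common: it was in 50.3% of the 161 promoters of genes called higher, in 50% of the 168 of genes called lower, in 47.2% of the 8123 of genes tested and in 29.7% of all 33469.

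The other genes among the 10 largest higher differences had varied roles. Vat1, a reductase-like protein of vesicle membranes, read 10.42, 10.30, 10.76 and 10.75 in the 19 h livers, against 7.83, 7.49, 7.39 and 7.91 in the 3 h livers, a difference of 2.91 ± 0.16 (SE, adjusted p = 0.000185). Its corn oil level, 8.97 ± 0.15, lay between the times, and it was called below corn oil at 3 h (adjusted p = 0.00308) and above it at 19 h (adjusted p = 0.00142). Atf5, a stress-responsive transcription factor, read 12.91, 13.02, 12.80 and 13.20 in the 19 h livers, against 10.50, 10.63, 10.57 and 10.60 in the 3 h livers, with a difference of 2.41 ± 0.08 (SE, adjusted p = 3.48e-05) and corn oil livers at 12.42 ± 0.29, so that the 3 h livers were the ones that stood apart. Sec31a, a subunit of the coat of vesicles that leave the endoplasmic reticulum, was higher by 1.96 ± 0.07 (SE, adjusted p = 3.48e-05) and Fam8a1, a partner of the ubiquitin ligase that clears misfolded proteins there, by 1.75 ± 0.06 (SE, adjusted p = 3.48e-05). Fam8a1 averaged 12.45 ± 0.08 in the 19 h livers and 10.70 ± 0.10 in the 3 h livers, and its corn oil level of 9.70 ± 0.11 was lower than both.

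Rnd2 and Fabp2, the intestinal fatty acid binding protein, were near the corn oil level at 3 h and above it at 19 h. Rnd2 read 10.27, 10.92, 10.63 and 10.47 in the 19 h livers, against 8.89, 8.06, 8.44 and 8.27 in the 3 h livers, a difference of 2.16 ± 0.20 (SE, adjusted p = 0.00153), and corn oil livers averaged 8.30 ± 0.27. Fabp2 read 5.69, 6.33, 6.87 and 7.11 in the 19 h livers, against 3.77, 3.94, 3.74 and 4.05 in the 3 h livers, a difference of 2.63 ± 0.30 (SE, adjusted p = 0.00283), and corn oil livers averaged 3.99 ± 0.17. In neither gene did the groups overlap, and at 3 h neither was called against corn oil (adjusted p = 0.769 for Rnd2 and 0.568 for Fabp2). Bambi, a decoy receptor of the TGF-beta family, was higher by 2.07 ± 0.24 (SE, adjusted p = 0.00325), its 3 h mean of 3.05 lying below the median of every array. Hnrnpul1, an RNA-binding protein, was higher by 1.75 ± 0.19 (SE, adjusted p = 0.00261). Its 19 h livers averaged 7.42, near the 7.27 ± 0.08 of corn oil livers, and its 3 h livers 5.68.

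The largest lower difference was that of Sds, serine dehydratase, which turns serine into pyruvate for glucose production. It read 3.24, 3.12, 3.21 and 2.81 in the 19 h livers, against 12.17, 11.03, 10.87 and 9.51 in the 3 h livers. The 19 h signals were all below the median of any array, where the size of a log2 difference depends on the low end of the scale, and the difference was -7.79 ± 0.51 (SE, adjusted p = 0.000527), or 222-fold. Corn oil livers varied widely, at 4.65 ± 2.19, and the 3 h livers were above them without passing the threshold (adjusted p = 0.0186).

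Aspg, an asparaginase, and Inmt, a methyltransferase of indole amines, were in contrast below their corn oil level at 19 h. Aspg read 2.89, 2.68, 2.57 and 2.53 in the 19 h livers, against 8.22, 8.06, 7.40 and 7.51 in the 3 h livers, with corn oil livers at 7.12 ± 0.66 and a difference between the times of -5.13 ± 0.20 (SE, adjusted p = 4.42e-05). Its 19 h signals, like those of Sds, were all below the median of any array. Inmt read 4.77, 3.43, 3.40 and 4.17 in the 19 h livers, against 8.97, 8.11, 9.02 and 8.19 in the 3 h livers, with corn oil livers at 8.97 ± 0.62 and a difference of -4.63 ± 0.38 (SE, adjusted p = 0.000915). Both were called below corn oil at 19 h (adjusted p = 0.000895 for Aspg and 0.00148 for Inmt), and in both the 3 h arrays overlapped those of corn oil.

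The same course, with the 3 h level near that of corn oil and the 19 h level below it, was seen in Enpp3, a nucleotide-splitting enzyme of the cell surface (-2.59 ± 0.20 SE, adjusted p = 0.000766), the monooxygenase Cyp3a9 (-2.50 ± 0.34 SE, adjusted p = 0.00509) and the aminoacylase Acy3 (-2.49 ± 0.24 SE, adjusted p = 0.00161). Each was called below corn oil at 19 h, with adjusted p of 0.00364, 0.0079 and 0.00222. Slc16a6, a monocarboxylate transporter, was the opposite case. It read 4.45, 4.39, 4.38 and 4.85 in the 19 h livers, against 9.08, 8.24, 8.00 and 6.44 in the 3 h livers, and corn oil livers averaged 4.13 ± 0.37, so that 3 h was high and 19 h was near the corn oil level. Its difference was -3.42 ± 0.51 (SE, adjusted p = 0.00766). Ethe1, which clears hydrogen sulfide in mitochondria, and Retreg1, a receptor for autophagy of the endoplasmic reticulum, differed by -3.35 ± 0.09 (SE, adjusted p = 2.67e-05) and -3.27 ± 0.25 (SE, adjusted p = 0.000766). For both the corn oil mean lay between the times (9.03 ± 0.79 for Ethe1 and 7.70 ± 0.48 for Retreg1).

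Of these 20 genes, the 10 largest in each direction, 14 kept their call whichever of the 8 arrays was left out. The other 6 were Aldh3a1, Fabp2, Bambi, Slc16a6, Aass and Cyp3a9, which lost it without 1 or another array (highest adjusted p 0.0271, for Slc16a6).

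Many enzymes of amino acid breakdown and the urea cycle were lower at 19 h. Of 29 measured, 12 were called lower and 0 higher (41.4% called, against 4.03% of all genes), 28 had a negative difference, and the median was -0.84. Next to Sds the largest difference was that of Aass, which starts lysine breakdown. Aass read 7.92, 9.41, 7.68 and 7.15 in the 19 h livers, against 11.76, 11.34, 11.13 and 10.82 in the 3 h livers, without overlap, and differed by -3.22 ± 0.48 (SE, adjusted p = 0.00738). Prodh, which oxidises proline, differed by -2.16 ± 0.32 (SE, adjusted p = 0.00755) and Hal, which removes ammonia from histidine, by -1.76 ± 0.28 (SE, adjusted p = 0.00975). Arg1, arginase, which releases urea, read 12.13, 12.57, 11.66 and 12.05 in the 19 h livers, against 14.14, 14.17, 13.97 and 13.64 in the 3 h livers. Its difference was -1.88 ± 0.21 (SE, adjusted p = 0.00257), and corn oil livers read 13.38 ± 0.20, nearer the 3 h level. Gls2, the liver glutaminase, differed by -1.63 ± 0.15 (SE, adjusted p = 0.0015). Sds and Gls2 kept their call whichever array was left out. Aass, Prodh and Hal each lost it without any of 7 arrays, and Arg1 without any of 4. Aass, Prodh and Hal also lost it in limma after quantile normalization (adjusted p = 0.0103, 0.0112 and 0.0132), and Hal with arrays centred on their medians (adjusted p = 0.012).

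The other 6 called were lower too. Cps1, the entry enzyme of the urea cycle, was not called at -0.66 ± 0.11 (SE, adjusted p = 0.0116), although its groups did not overlap. The 29 members were set against corn oil as well. At 19 h, 7 of them were called lower than corn oil and 0 higher (median -0.78), while at 3 h 0 were called lower and 1 higher (median 0.23). Over all genes the 19 h livers had 215 calls against corn oil (2.07%), 99 of them higher (0.951%) and 116 lower (1.11%), and the 3 h livers 262 (2.52%), 139 higher (1.34%) and 123 lower (1.18%). Quantile normalization turned the split at 3 h round, with 93 higher and 143 lower, and blocking on the replicate number left 38 calls at 19 h and 0 at 3 h (2401 genes had an unadjusted p under 0.05 at 3 h without it). The 2 comparisons share their corn oil arrays with each other and their TCDD arrays with the comparison of the times, and the corn oil rats differ from the 3 h rats in time and scan day besides TCDD. The count at 19 h was 94, 120 and 85 without 19 h replicates 1, 3 and 4, and 113, 96, 90 and 115 without corn oil replicates 1, 2, 3 and 4. The count at 3 h was 113, 100 and 117 without 3 h replicates 1, 2 and 3, and 116, 145 and 114 without corn oil replicates 1, 2 and 3. With the lowest 40% of genes left out, 345 genes were called at 19 h and 430 at 3 h.

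**Figure D3:**
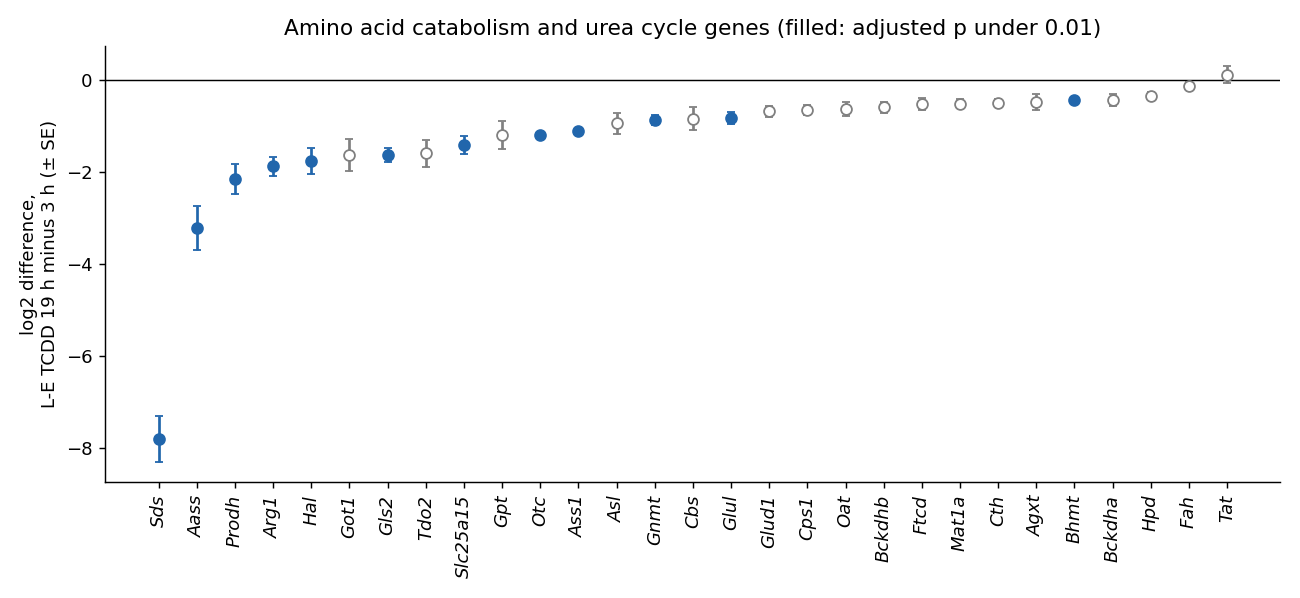
Log2 difference (L-E TCDD 19 h minus 3 h) of the 29 measured genes of amino acid catabolism and the urea cycle, ordered by size, with the standard error (n = 4 arrays against 4); filled points are the 12 called at an adjusted p under 0.01. All members but Tat lie below 0, and Sds lies far below the rest.

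Of 14 genes that respond to glucocorticoids, 1 was called (7.14%, against 4.03% of all genes), which is near the share of all genes. The median difference was -0.95, and 12 of the 14 differences were negative. This was Hsd11b1, which makes active glucocorticoid in the liver, at 12.27 ± 0.21 in the 19 h livers and 13.27 ± 0.07 in the 3 h livers (SD, n = 4 each; -0.99 ± 0.10 SE, adjusted p = 0.00215). Tdo2, which opens the ring of tryptophan, read 12.07, 12.85, 11.44 and 11.87 in the 19 h livers, against 13.88, 13.73, 13.66 and 13.35 in the 3 h livers, without overlap, but the difference of -1.60 ± 0.29 (SE, adjusted p = 0.015) did not pass the threshold. The values for Tsc22d3, a mediator of glucocorticoid action, were -1.78 ± 0.42 (SE, adjusted p = 0.0401), for the receptor gene Nr3c1 -1.32 ± 0.26 (SE, adjusted p = 0.021) and for Igfbp1 -2.41 ± 0.91 (SE, adjusted p = 0.159).

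In glucose metabolism, 4 of 15 genes were called lower and 0 higher (26.7% called, against 4.03% of all genes, with a median of -0.32). Pfkfb1, the liver enzyme that sets fructose 2,6-bisphosphate, read 7.16, 7.78, 7.46 and 7.42 in the 19 h livers, against 9.73, 10.00, 10.45 and 9.40 in the 3 h livers. Its groups were apart by -2.44 ± 0.23 (SE, adjusted p = 0.00159), with corn oil livers at the 19 h level (7.63 ± 0.85). Slc2a2, the glucose transporter of hepatocytes, read 10.02, 9.38, 9.75 and 9.71 in the 19 h livers, against 11.52, 11.51, 11.16 and 11.31 in the 3 h livers, a difference of -1.66 ± 0.15 (SE, adjusted p = 0.00121), and corn oil livers read 11.18 ± 0.20, near the 3 h level. Slc37a4, which carries glucose 6-phosphate to its phosphatase, differed by -1.28 ± 0.16 (SE, adjusted p = 0.00378) and Pygl, liver glycogen phosphorylase, by -1.18 ± 0.10 (SE, adjusted p = 0.000915). Pck1, the enzyme usually taken as the marker of gluconeogenesis, read 9.68, 11.48, 12.49 and 11.60 in the 19 h livers, against 12.93, 12.94, 12.56 and 12.91 in the 3 h livers. The 19 h arrays were all below the 3 h arrays but spread widely, and the difference of -1.52 ± 0.54 (SE, adjusted p = 0.14) did not pass the threshold. Pklr, pyruvate kinase, was at -0.97 ± 0.22 (SE, adjusted p = 0.0362).

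Genes of fatty acid oxidation were higher where they were called, and those of synthesis were split. Of 18 genes of synthesis, 2 were called lower and 1 higher (16.7% called, against 4.03% of all genes). Of 22 genes of oxidation, 4 were called higher and 0 lower (18.2% called, with a median of 0.19). Acaca, which makes malonyl-CoA, read 9.17, 8.69, 8.66 and 8.81 in the 19 h livers, against 10.37, 10.74, 10.41 and 10.29 in the 3 h livers, with a difference of -1.62 ± 0.14 (SE, adjusted p = 0.0012) and a corn oil level of 8.98 ± 0.54, so that 3 h was the high group. Lpin1, a phosphatidate phosphatase, differed by -2.24 ± 0.30 (SE, adjusted p = 0.00495) and the elongase Elovl5 higher by 0.67 ± 0.09 (SE, adjusted p = 0.005). Fasn, fatty acid synthase, was apart in all arrays without passing the threshold (-1.40 ± 0.24 SE, adjusted p = 0.012), and the desaturase Scd was at -1.41 ± 0.52 (SE, adjusted p = 0.15). Elovl6, another elongase, averaged 8.01 ± 0.43 in the 19 h livers and 9.45 ± 0.65 in the 3 h livers (SD, n = 4 each; -1.44 ± 0.35 SE, adjusted p = 0.0474), both far above the 4.48 ± 0.35 of corn oil livers. It was called against corn oil at 19 h (adjusted p = 0.000975) and at 3 h (adjusted p = 0.000747).

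Among the genes of beta-oxidation, Acadl, long-chain acyl-CoA dehydrogenase, read 11.90, 12.00, 12.16 and 12.07 in the 19 h livers, against 11.31, 11.44, 11.34 and 11.41 in the 3 h livers, a difference of 0.66 ± 0.06 (SE, adjusted p = 0.00134). The subunits of the trifunctional protein, Hadha and Hadhb, were higher by 0.67 (adjusted p = 0.00459) and 0.83 (adjusted p = 0.00828), and Decr1, which handles unsaturated fatty acids, by 0.82 (adjusted p = 0.00427). In all 4 the 3 h mean was below the 19 h mean and the corn oil mean. Acadl kept its call whichever array was left out, while Hadha, Decr1 and Hadhb lost it without any of 6, 5 and 8 arrays. Hadhb also lost it in limma after quantile normalization (adjusted p = 0.0102) and with arrays centred on their medians (adjusted p = 0.0133). Of the 22, limma called 0 against corn oil at 19 h (6 had an unadjusted p under 0.05, against 1969 of all 10411 genes), and at 3 h 2 were called lower. Angptl4, a lipase inhibitor induced by fasting, read 7.00, 6.26, 10.72 and 8.16 in the 19 h livers, against 9.55, 10.00, 10.81 and 11.50 in the 3 h livers. The 19 h arrays were spread more widely than the 3 h arrays, and the difference of -2.43 ± 0.98 (SE, adjusted p = 0.184) did not pass the threshold.

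Bile acid genes were lower where they were called. Of 21 measured, 5 were called lower and 0 higher (23.8% called, against 4.03% of all genes, with a median of -0.30). The organic anion transporter Slco1a4 read 8.79, 7.96, 8.48 and 8.33 in the 19 h livers, against 10.28, 10.60, 11.18 and 10.44 in the 3 h livers, a difference of -2.23 ± 0.24 (SE, adjusted p = 0.0024), with corn oil livers at 10.88 ± 0.28. Slc10a1, the sodium-dependent bile acid importer, differed by -1.06 ± 0.10 (SE, adjusted p = 0.00172). Slc27a5, which activates bile acids with coenzyme A, differed by -0.59 ± 0.09 (SE, adjusted p = 0.00971), the transporter Slco1a1 by -0.54 ± 0.08 (SE, adjusted p = 0.00841) and Baat, which joins bile acids to glycine or taurine, by -0.33 ± 0.04 (SE, adjusted p = 0.00325). Slco1a4, Slc10a1, Slc27a5 and Slco1a1 were also called below corn oil at 19 h. Between the times, Slco1a4 and Slc10a1 kept their call whichever array was left out. Slc27a5, Slco1a1 and Baat lost it without any of 7, 7 and 6 arrays. Each also lost it in limma after quantile normalization (adjusted p = 0.0159, 0.0217 and 0.0102), and Slco1a1 with arrays centred on their medians (adjusted p = 0.0118).

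Cyp7a1, the rate-limiting enzyme of bile acid synthesis, was low in all 3 h livers and in 2 of the 19 h livers. It read 2.45, 8.36, 2.43 and 5.13 in the 19 h livers, against 2.42, 2.60, 2.39 and 2.40 in the 3 h livers, while corn oil livers averaged 9.18 ± 1.19. All 3 h arrays and 2 of the 19 h arrays were below the median of every array, and the other 2 were higher. The times were not called apart (2.14 ± 1.29 SE, adjusted p = 0.351). Against corn oil it was called at 3 h (adjusted p = 0.00131) and not at 19 h (adjusted p = 0.119). Cyp8b1, which makes cholic acid, was apart in all arrays at 1.45 ± 0.29 (SE, adjusted p = 0.0236). Of 18 genes of cholesterol synthesis and uptake limma called 0 (6 had an unadjusted p under 0.05, against 2542 of all 10411 genes), and the median was 0.34. Msmo1, a sterol oxidase, averaged 10.32 ± 0.28 in the 19 h livers and 9.24 ± 0.38 in the 3 h livers (1.08 ± 0.21 SE, adjusted p = 0.0211).

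In the cytochrome P450 families 2 to 4, 8 of 32 genes were called lower and 1 higher (28.1% called, against 4.03% of all genes). The higher one was Cyp2a1, a steroid hydroxylase, which read 10.24, 10.28, 10.60 and 10.42 in the 19 h livers, against 8.81, 9.23, 9.11 and 8.75 in the 3 h livers and differed by 1.41 ± 0.13 (SE, adjusted p = 0.0015). Next to Cyp3a9, the lower ones included Cyp3a18 at -1.16 (adjusted p = 0.00355), Cyp2d4 at -1.07 (adjusted p = 0.00516), Cyp2j3 at -1.04 (adjusted p = 0.00283) and Cyp2f4 at -0.88 (adjusted p = 0.00119). These genes have close relatives whose RNA may share probes, so a value may belong in part to a relative. Of 29 conjugating enzymes, 5 were called lower and 2 higher (24.1% called, against 4.03% of all genes). Mgst3, a glutathione transferase of membranes, read 9.95, 9.75, 9.64 and 9.56 in the 19 h livers, against 10.96, 11.09, 11.07 and 11.18 in the 3 h livers, a difference of -1.35 ± 0.09 (SE, adjusted p = 0.000527). Gstk1, Gstm7, the sulfotransferase Sult1a1 and Ugp2, which makes UDP-glucose, differed by between -1.10 and -0.94 and were all called, and Gsta4, which conjugates products of lipid peroxidation, was higher by 0.56 ± 0.09 (SE, adjusted p = 0.00801).

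Targets of NRF2 were split. Of 13 measured, 2 were called higher (Nqo1 and Gsr, glutathione reductase, 0.62 ± 0.07 SE, adjusted p = 0.00245) and 3 lower. That is 38.5% called, against 4.03% of all genes. Srxn1, sulfiredoxin, read 7.19, 6.20, 5.98 and 6.57 in the 19 h livers, against 8.85, 8.00, 8.55 and 8.82 in the 3 h livers, a difference of -2.07 ± 0.30 (SE, adjusted p = 0.00703), with corn oil livers lower than both at 4.81 ± 0.33. It was called above corn oil at 3 h (adjusted p = 0.000594) and not at 19 h (adjusted p = 0.0188). Tkt and Taldo1, enzymes of the pentose phosphate pathway, differed by -0.70 (adjusted p = 0.00459) and -0.52 (adjusted p = 0.00492).

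Of 25 genes in the list of endoplasmic reticulum folding and degradation, 3 were called higher and 1 lower (16% called, against 4.03% of all genes). The median difference was 0.20, against 0.02 over all genes, and 20 of the 25 differences were positive. The chaperone Calr was higher by 0.68 ± 0.07 (SE, adjusted p = 0.00258), the isomerase Pdia4 by 0.61 ± 0.07 (SE, adjusted p = 0.0033) and Derl1, a part of the degradation channel, by 0.46 ± 0.06 (SE, adjusted p = 0.00466). Edem1, which marks misfolded glycoproteins for degradation, read 9.69, 10.19, 9.77 and 10.14 in the 19 h livers, against 12.61, 12.62, 12.42 and 11.28 in the 3 h livers, a difference of -2.28 ± 0.32 (SE, adjusted p = 0.00553). The called members thus did not share a direction. Edem1 lost its call without any of 7 arrays, Pdia4 and Derl1 without any of 5 each, and Calr without 1. In the insulin and IGF axis, 2 of 18 were called lower and 1 higher (16.7% called, against 4.03% of all genes). Igfbp3, a binding protein of IGFs, read 7.49, 7.39, 6.80 and 6.78 in the 19 h livers, against 8.72, 8.82, 8.96 and 9.04 in the 3 h livers (-1.77 ± 0.18 SE, adjusted p = 0.00218), Igfbp4, another, was higher by 1.70 ± 0.19 (SE, adjusted p = 0.00276), and Ghr, the growth hormone receptor, differed by -0.77 ± 0.12 (SE, adjusted p = 0.00832).

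In other lists 1 or 2 members were called, 8.7% of cell cycle, 12.5% of acute phase and 6.25% of hepatocyte factor genes. These were Zwint, of the kinetochore (1.16 ± 0.07 SE, adjusted p = 0.000337), and Pcna, the replication clamp (-1.10 ± 0.18 SE, adjusted p = 0.00971), of 23 cell cycle genes, 18 of which were below the median of every array at both times. Of 16 acute phase genes, Apcs (-0.81, adjusted p = 0.005) and Crp (-0.40, adjusted p = 0.00909) were lower. Rxra, the partner of many nuclear receptors, was the 1 of 16 hepatocyte factors called (0.52, adjusted p = 0.00384), while Cebpa, apart in all arrays, was at 1.88 ± 0.32 (SE, adjusted p = 0.0118). The proteasome subunit Psmb5 (0.75, adjusted p = 0.00609), the respiratory chain subunit Uqcrc1 (0.25, adjusted p = 0.000915) and nucleolin, Ncl (-0.45, adjusted p = 0.0041), were the only members called of 26, 23 and 14 (3.85%, 4.35% and 7.14%). These shares are near the 4.03% of all genes, so the calls give no result about the lists. In the proteasome list 24 of the 26 differences were positive, with a median of 0.30 against 0.02 over all genes. An unadjusted p under 0.05 was found for 15 of the 26, against 2542 of all 10411 genes.

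In 5 further lists limma called 0 members. An unadjusted p under 0.05 was found for 4 of 16 clock genes, 7 of 24 immediate early and Klf factors, 3 of 12 heat shock proteins, 3 of 10 DNA damage genes and 4 of 9 genes of heme and iron. Over all genes tested it was found for 2542 of 10411, so most of these counts are near the share of all genes. Close to the threshold were Ier2 (-1.45 ± 0.24 SE, adjusted p = 0.0115), Klf9 (-2.19 ± 0.38 SE, adjusted p = 0.0133) and the clock repressor Cry2 (-0.78 ± 0.14 SE, adjusted p = 0.0136), each apart in all arrays. Cebpb was at -0.72 ± 0.16 (SE, adjusted p = 0.0327), Gadd45a, a growth arrest gene, at 1.57 ± 0.40 (SE, adjusted p = 0.0521) and Alas1, which starts heme synthesis, at 1.26 ± 0.31 (SE, adjusted p = 0.0474). Per2, a clock gene, averaged 8.54 ± 0.37 in the 19 h livers and 7.95 ± 0.15 in the 3 h livers, and 3.24 ± 0.69 in corn oil livers (SD, n = 4 each). It was high in all 8 TCDD livers and was called against corn oil at 19 h (adjusted p = 0.000849) and at 3 h (adjusted p = 0.000756), but not between the times (0.59 ± 0.18 SE, adjusted p = 0.0953).

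With no corn oil group at 3 h, the corn oil livers of 19 h can only place each level. Placed on a scale where the 3 h mean is 0 and the 19 h mean is 1, the corn oil mean lay between the times for 280 of the 420 called genes (66.7%), beyond the 3 h mean for 84 (20%) and beyond the 19 h mean for 56 (13.3%). It was nearer 3 h for 244 genes (58.1%) and nearer 19 h for 176 (41.9%). Of the 420, 92 were called against corn oil at 19 h alone, as Aspg and Inmt, 67 at 3 h alone, as Slc16a6, Atf5 and Srxn1, 10 at both times, as Aldh3a1 and Vat1, and 251 (59.8%) at neither. Among the genes higher at 19 h these counts were 39, 35, 8 and 113, and among those lower 53, 32, 2 and 138.

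**Figure D4:**
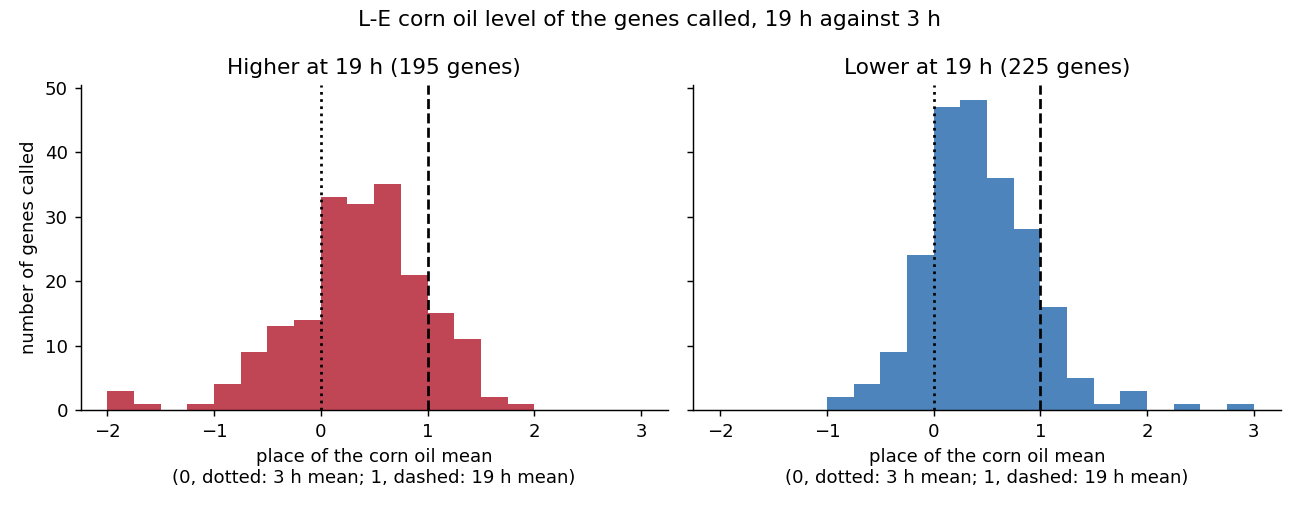
Place of the L-E corn oil mean (19 h) for each called gene on a scale where 0 is the TCDD 3 h mean (dotted) and 1 the TCDD 19 h mean (dashed); the left panel holds the 195 genes higher at 19 h and the right panel the 225 lower, and 4 values beyond the axis are drawn in the end bins. In both panels most genes lie between 0 and 1.

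The same comparison in H/W livers called 539 genes (5.18%), 341 higher (3.28%) and 198 lower (1.9%), from arrays that are not those of the L-E rats but whose 3 h arrays were scanned on the same day. Of these, 165 were called in both strains, which is 39.3% of the L-E calls and 30.6% of the H/W calls. In all 165 the direction was the same, 95 higher and 70 lower. Of the 420 genes called in L-E, 407 had the same sign in H/W (96.9%, against 48.9% of all genes). The median size of the difference of these 420 genes was 0.81 in L-E and 0.60 in H/W, in genes chosen for being called in L-E. Across the 10411 genes, which are not independent replicates, the differences correlated at a Pearson's r of 0.75, a description of arrays that share their design and most of their scan days (H/W TCDD 19 h replicate 4 was scanned on day 3, which holds no L-E array of these groups). Leaving out 1 H/W array gave 330 to 387 calls, under the main count by over 1.5 times without 19 h replicates 1 (334) and 4 (347) and without 3 h replicates 1 (341), 3 (343) and 4 (330).

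The leading genes of both directions differed the same way in H/W. Cyp1b1 differed by 7.40 in H/W (adjusted p = 6.11e-05), Aldh3a1 by 2.58, Vat1 by 2.50 and Atf5 by 2.47. Sds differed by -8.23, Aspg by -3.79 and Inmt by -4.04. In the amino acid list, 11 of 29 members were called lower in H/W and 0 higher, with a median of -0.73, beside 12 and -0.84 in L-E. In the cholesterol list 8 of 18 were called higher in H/W (median 1.12), beside 0 in L-E (median 0.34), and in the proteasome list 17 of 26 (median 0.56), beside 1 (median 0.30). These differences between the strains in number of calls were not tested as such. Over all genes, 3.28% were called higher in H/W and 1.87% in L-E, and 1.9% and 2.16% lower. The genes called in the interaction test below (Bambi, Abcc9, Fam89a, Arfgap1, Baat and Ywhab) are not members of the cholesterol or proteasome list.

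**Figure D5:**
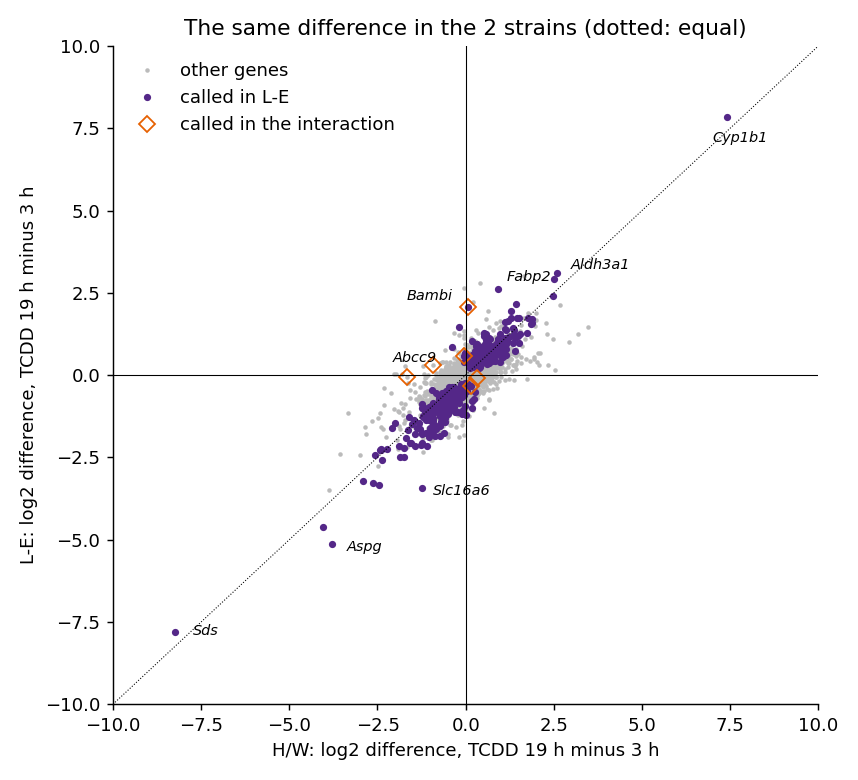
Log2 difference between TCDD 19 h and TCDD 3 h of each of 10411 genes in L-E (vertical) and H/W (horizontal), with 4 arrays per group; filled purple points are the 420 genes called in L-E and diamonds the 6 called in the interaction. Cyp1b1 and Sds lie near the line of equal differences, and Bambi and Abcc9 lie off it.

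A test of the interaction, the L-E difference minus the H/W difference, called 6 genes (0.0576%), 4 higher and 2 lower. Bambi had the largest L-E difference of the 6. It read 4.50, 5.68, 5.26 and 5.05 in L-E 19 h livers, against 2.87, 3.02, 2.98 and 3.34 in L-E 3 h livers. In H/W it read 3.02, 3.01, 3.30 and 3.15 in H/W 19 h livers, against 3.26, 2.96, 2.89 and 3.06 in H/W 3 h livers, and the interaction was 1.99 ± 0.27 (SE, adjusted p = 0.00887). The H/W arrays were within the range of the L-E 3 h arrays at both times. Arfgap1, which switches off the coat GTPase Arf1, was higher by 0.57 ± 0.05 (SE, adjusted p = 0.00134) in L-E and differed by -0.05 in H/W, an interaction of 0.62 ± 0.08 (SE, adjusted p = 0.00881). Baat differed by -0.33 ± 0.04 (SE, adjusted p = 0.00325) in L-E and differed by 0.16 in H/W (interaction -0.49 ± 0.06 SE, adjusted p = 0.00598).

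For the other 3 the larger difference was in the H/W livers. Abcc9, a subunit of potassium channels, read 4.18, 4.10, 4.06 and 4.08 in L-E 19 h livers, against 4.12, 4.14, 4.25 and 4.14 in L-E 3 h livers, all between 4.06 and 4.25. In H/W it read 4.46, 4.35, 4.04 and 4.54 in H/W 19 h livers, against 6.41, 5.69, 5.67 and 6.23 in H/W 3 h livers, and the interaction was 1.60 ± 0.21 (SE, adjusted p = 0.00881). The interaction was 1.24 ± 0.15 (SE, adjusted p = 0.00598) for Fam89a and -0.39 ± 0.05 (SE, adjusted p = 0.00598) for Ywhab, a 14-3-3 protein. No interaction was called once scan day entered as a fixed block, after quantile normalization, or without 1 of 8 single arrays (L-E TCDD 19 h replicates 3 and 4, L-E TCDD 3 h replicate 2, the 4 H/W TCDD 19 h replicates and H/W TCDD 3 h replicate 3). Averaging the probe sets or dropping the lowest 40% of genes left 3, and leaving out L-E 3 h replicate 3 or 4 or H/W 3 h replicate 1 or 4 left 1 or 2. The count at an unadjusted p under 0.05 was 1818 of the 10411 genes in the full fit.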

How the data were processed

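RNA from the liver of 1 rat was hybridised to each Affymetrix rat RAE230A array. The values used are the log2 signals deposited by the authors, made with GCRMA 2.4.1, affy 1.10.0 and R 2.3.1 per the submitters' processing notes; the study's methods describe RMA with another probe set definition, and the deposited table was used as it stands. Precision is limited by the number of arrays, 4 per group. Of 15923 probe sets, 57 controls, 312 with several gene symbols and 2771 with none were left out. The other 12783 gave 10411 genes, each represented by its brightest probe set on average across the 8 arrays. All tests were fitted over the 10411 genes with limma 3.58.1 (R 4.3.3), with Benjamini-Hochberg adjustment, and a gene with an adjusted p under 0.01, the study's threshold, was called. The scripts were tested on simulated data. Figures were drawn with matplotlib 3.10.9.

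The fit of 19 h against 3 h held only those 8 arrays. H/W rats, each time against corn oil, and the interaction of strain and time were fitted likewise. Genes were named by rule: the 10 largest differences in each direction among called genes whose arrays did not overlap and whose higher mean was above every array median, up to 6 called members of each list, and the interaction genes. Members that define a list (such as Ahr, Pck1 and Cyp7a1) are named whether called or not, and were chosen after their values were seen. The members and lists were chosen with earlier results of these data known. Gene symbols came from the platform's annotation (12748 probe sets matched RefSeq by Entrez ID, and 0 symbols changed), and promoters from RefSeq (GRCr8). The p-values measure the spread between rats of 1 cage. Alternatives were other probe set rules, a filter on low genes, other normalizations, limma's trend and array weights, blocks for replicate number or scan day, a joint model of 10 groups, other thresholds and each array left out. No alternative was added later.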

Additional observations from a re-analysis of the deposited data

Results flagged for a closer look

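Of 312 groups of 4 arrays, 21 held an array far from the other 3 by Dixon's criterion, which chance exceeds in about 1 of 20. Among the L-E 19 h arrays, replicate 2 was low for Nfe2l2 (11.2), Nr3c1 (6.16), Pklr (9.31) and Ghr (10.5), replicate 4 was high for Slc16a6 (4.85) and low for Retreg1 (5.70), and replicate 3 was low for Pygl (10.2), all as log2 signals. Among the 3 h arrays, replicate 2 was low for Nqo1 (11.3) and high for Cyp7a1 (2.60), replicate 3 was high for Abcc9 (4.25) and low for Pck1 (12.6), and replicate 4 was low for Edem1 (11.3). Among the corn oil arrays, replicate 1 was high for Cyp1b1 (3.79) and low for Tdo2 (12.6), replicate 2 was low for Slc37a4 (10.2), replicate 3 was high for Tiparp (6.85) and low for Fabp2 (3.74) and Rxra (8.13), and replicate 4 was high for Srxn1 (5.31), Gsr (7.20) and Per2 (4.29).

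In 6 genes the difference between 19 h and 3 h was not the same in L-E as in H/W by the test of the interaction. The L-E difference minus the H/W difference was 1.99 for Bambi, 1.60 for Abcc9, 1.24 for Fam89a, 0.62 for Arfgap1, -0.49 for Baat and -0.39 for Ywhab, on the log2 scale.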

How the results depend on the processing

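Calls of 19 h against 3 h in L-E numbered 338 after quantile normalization (201 higher and 137 lower), 367 with arrays centred on their medians (138 higher and 229 lower), 568 without the lowest 40% of genes, and between 420 and 491 under the other probe set rules, limma's trend and array weights, all within 1.5 times of 420. They moved to 891 in 1 fit over the 10 groups, 148 with scan day as a random block (all 148 among the 420), 1038 at an adjusted p under 0.05, 140 with a log2 difference of at least 1 besides, and 172 to 341 without single arrays. For H/W (539) the values were 877, 269, 1194, 156 and 330 to 387. For L-E 19 h against corn oil (215) they were 345 without the lowest 40% of genes, 714 in 1 fit, 675 at 0.05, 101 with the log2 difference and 85 to 173 without single arrays. For L-E 3 h against corn oil (262) they were 430, 740, 878, 117 and 100 to 213, and 1463 with scan day as a random block, where the estimated correlation was negative (-0.23); quantile normalization gave 93 higher and 143 lower, against 139 and 123. The 6 interaction calls became 3 with the mean of the probe sets, 3 without the lowest 40% of genes, 0 after quantile normalization, 0 with scan day as a fixed block, 36 at 0.05, 3 with the log2 difference and 0 to 6 without single arrays. Blocking on the replicate number left 52 calls in L-E (44 of them among the 420), 112 in H/W, 38 and 0 against corn oil at 19 h and 3 h, and 2 in the interaction. The labels give no meaning to these numbers. Deviations of same-numbered arrays correlated at 0.16, 0.25, -0.08 and 0.11, not all above 0.1, so the rats were not taken as paired, although 3 of the 4 arrays at 19 h correlated best with their own number. Of 2028 values of single genes under the alternatives, 1505 kept direction and side of the threshold, 483 no longer passed it, 39 newly passed it and 1 changed sign, Ywhab in L-E with the mean of its probe sets (0.18, against -0.08). The causes were not tested. In 8 of the 420 genes called the lower group mean was under the lowest array median (3.52), where the size of a difference depends on the low end of the scale.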
